A study of Mus musculus with 2 samples.

Results

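The 9 genes described here are Klrd1, Klrc1, Klrk1, Klrg1, Klre1, Tyrobp, Fcer1g, Cd7 and Crtam, out of 32285 genes in the deposited matrices. They were taken by name as NK-type receptors and adaptors, with earlier results of these data known. The shares over all genes set beside their counts are therefore no test of the list. All 9 were found in both libraries, and all 9 passed the filter on low counts in each comparison below. The data were 2 droplet single-cell RNA libraries of 5′ ends, 1 from female and 1 from male C57BL/6J mice aged 12-14 weeks, made from T cells that had infiltrated MB49 tumors by day 14. MB49 is a transplantable mouse bladder tumor line, and the labels do not state how many mice stand behind each library. The values are unique molecular identifier (UMI) counts, in which each captured mRNA molecule counts 1 time.

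Cells entered with 500 or more genes and no more than 10% of UMIs from mitochondrial genes, which left 3468 of 3658 female and 3519 of 3708 male barcodes. Cd8 cells had at least 2 UMIs of Cd8a and Cd8b1 together and no Foxp3 UMI. Treg cells (regulatory T cells) had at least 1 Foxp3 UMI and no Cd8a or Cd8b1 UMI, and the other Cd4 cells had at least 1 Cd4 UMI and none of Foxp3, Cd8a or Cd8b1. All 3 classes had no UMI of Lyz2, a myeloid gene. The gates gave 2221 female and 1908 male Cd8 cells, 232 and 343 Treg cells, and 246 and 231 other Cd4 cells. The labels describe a sort for viable CD4+ cells, yet 4129 of the 6987 kept barcodes met the Cd8 gate, so the sort label does not describe most cells of these libraries. Median depth was 9593 UMIs in Cd8 cells, 6194 in Treg cells and 5205 in other Cd4 cells, and shares of positive cells are therefore also given after thinning each cell to 3000 UMIs. The libraries shared 16 barcodes. A further 779 barcodes held both Foxp3 and Cd8 UMIs at a median of 33823 UMIs and stayed outside the classes, and no doublet caller was run.

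The classes carried the T cell genes their gates imply. The 8 T cell markers summed to 4155-5525 CPM (UMIs of a gene over all UMIs of the sum, on the usual CPM scale) across the 6 class sums, and Cd3e, a chain of the T cell receptor complex, was found in 93.6-98.2% of cells of every class and library. Ncr1, the defining receptor of NK cells, had 45 UMIs in female and 5 in male Cd8 cells, and 0 in the Treg cells of either library. In other Cd4 cells Ncr1 had 27 female and 0 male UMIs, and all 27 lay in barcodes without a Cd3e UMI. Among the 11 female other Cd4 barcodes without Cd3e, 4 held 257 of the 258 Tyrobp UMIs of that class, 130 of 133 for Fcer1g, 519 of 529 for Gzmf, 83 of 218 for Klrd1, 17 of 23 for Klre1 and 0 of 162 for Klrg1. Without the 11 barcodes lacking Cd3e, the female other Cd4 level was 91.8 CPM for Klrd1, 99.2 CPM for Klrc1, 40.8 CPM for Klrk1 and 4.08 CPM for Klre1, each lower than with them. The fit with a Cd3e UMI required and no Ncr1 UMI in every class is given beside the results this touches. Free RNA was judged from 53 barcodes with at least 10 keratin UMIs (Krt8 and Krt18) and no Cd3e UMI, here called Krt8 cells, whose median depth was 46411 UMIs. In CPM and in thinned shares, free RNA in these barcodes is set against far more UMIs than in the T cells. Such values can therefore understate the free RNA in a T cell barcode.

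NK-type receptors belong mainly to the C-type lectin-like family of the NK gene complex, and activated cytotoxic T cells can acquire them. Klrd1 encodes CD94, which pairs with NKG2A (Klrc1) into an inhibitory receptor for the nonclassical class I molecule Qa-1, encoded by H2-T23. Klrk1 encodes NKG2D, an activating receptor for stress-induced ligands of the Raet1, H60 and Ulbp1 families that signals through the adaptor DAP10 (Hcst). Klrg1 encodes an inhibitory receptor for cadherins. Klre1 encodes a lectin-like receptor chain that in mouse pairs with Klri1 or Klri2. Crtam is an adhesion receptor for Cadm1, Cd7 an immunoglobulin-family surface protein of T and NK cells, and Tyrobp (DAP12) and Fcer1g (the Fc receptor gamma chain) are adaptors that carry activating motifs for receptors without their own.

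On GRCm38 with GENCODE M21 annotation, 4 of the receptor genes lie near each other on chromosome 6: Klre1 at chr6:129577905-129585827 on the plus strand, Klrd1 at chr6:129591782-129598775 on the plus strand, Klrk1 at chr6:129610323-129623864 on the minus strand and Klrc1 at chr6:129666015-129678973 on the minus strand. Klrg1 lies apart from them on the same chromosome, at chr6:122270596-122282882 on the minus strand. Tyrobp lies at chr7:30413760-30417585 on the plus strand. The remaining members are on the minus strand, Fcer1g at chr1:171229572-171234365, Cd7 at chr11:121036747-121039418 and Crtam at chr9:40969691-41004628. Klrc2 and Klrc3, near-identical to Klrc1 in sequence, sit between Klrk1 and Klrc1, so reads of these genes may be divided among them.

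The start regions of the neighbouring receptors are shown because these genes had their highest level in the same class, and those of Fcer1g and Gzmf because these 2 transcripts were found together within Cd8 cells. RefSeq on GRCm38.p6 gave a promoter for 4 of the 9 members, each from 250 bases before to 50 bases after the start, 5′ to 3′ on the gene's strand. Klre1 has a pair of such windows, of which the upstream one is shown, and the other, at chr6:129578036-129578335, had 0 matches to any of the motifs below. Capitals mark matches on either strand to the RUNX core TGTGGT, the T-box motif GGTGTGA, the AP-1 site TGANTCA or the ETS core GGAAGT.
Klre1 chr6:129577963-129578262 plus: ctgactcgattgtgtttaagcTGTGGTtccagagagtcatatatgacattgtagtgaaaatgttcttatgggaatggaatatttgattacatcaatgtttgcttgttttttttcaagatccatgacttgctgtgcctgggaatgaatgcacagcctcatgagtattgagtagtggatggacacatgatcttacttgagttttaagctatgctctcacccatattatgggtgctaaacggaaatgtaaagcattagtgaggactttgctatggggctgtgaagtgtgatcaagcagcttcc
Klrk1 chr6:129623815-129624114 minus: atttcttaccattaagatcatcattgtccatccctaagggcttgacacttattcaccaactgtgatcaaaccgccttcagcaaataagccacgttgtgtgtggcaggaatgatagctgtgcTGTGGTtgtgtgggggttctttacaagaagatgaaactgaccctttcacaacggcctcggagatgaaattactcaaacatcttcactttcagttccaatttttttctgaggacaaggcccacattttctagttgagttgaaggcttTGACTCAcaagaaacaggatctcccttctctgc
Klrc1 chr6:129678924-129679223 minus: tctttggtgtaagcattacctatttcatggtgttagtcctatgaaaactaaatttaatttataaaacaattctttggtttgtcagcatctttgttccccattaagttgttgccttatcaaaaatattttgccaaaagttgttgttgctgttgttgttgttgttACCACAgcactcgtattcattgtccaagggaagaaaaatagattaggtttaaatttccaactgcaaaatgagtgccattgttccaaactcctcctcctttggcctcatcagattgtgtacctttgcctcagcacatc
Fcer1g chr1:171234300-171234599 minus: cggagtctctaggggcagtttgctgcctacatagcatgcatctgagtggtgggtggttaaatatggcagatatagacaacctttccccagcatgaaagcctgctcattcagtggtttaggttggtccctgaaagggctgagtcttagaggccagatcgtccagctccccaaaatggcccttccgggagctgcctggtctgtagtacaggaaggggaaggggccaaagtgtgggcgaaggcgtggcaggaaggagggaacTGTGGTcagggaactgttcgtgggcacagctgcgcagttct
Gzmf chr14:56211358-56211657 minus: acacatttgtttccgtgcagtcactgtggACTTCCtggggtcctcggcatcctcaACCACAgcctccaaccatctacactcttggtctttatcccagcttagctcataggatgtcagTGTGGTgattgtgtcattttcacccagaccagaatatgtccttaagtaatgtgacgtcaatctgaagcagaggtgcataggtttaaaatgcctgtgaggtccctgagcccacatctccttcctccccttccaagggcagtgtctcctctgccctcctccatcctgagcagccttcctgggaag
The RUNX core, present in 16.68% of 32544 promoter windows, had 1 match in each of the Klre1, Klrk1, Klrc1 and Fcer1g windows shown and 2 in that of Gzmf. The AP-1 site, present in 7.789% of windows, had 1 match in the Klrk1 window, and the ETS core, present in 23.74%, had 1 in the Gzmf window. The T-box motif, present in 3.955% of windows, had no match in these 5. The matches describe letters in these windows and do not show binding.

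In Cd8 cells the lectin-like receptors of the NK gene complex were abundant, and in Treg cells Klrg1 stood in their place. Of the 9 members, 6 were higher and 1 was lower in Cd8 than in Treg cells, with the rest not passing the test. The test was edgeR's quasi-likelihood test on UMIs summed per library and class with the library as a block, adjusted over all genes, and an adjusted p under 0.05 counted as a change. By that rule 16.9% of the 9840 genes tested were higher and 16.5% were lower. The median log2 fold change over the 9 members was 3.36, beside 0.03 over all genes. With the library as a block, the p-values measure how the differences between classes vary from 1 library to the other, pooled over the classes fitted. They rest on only 2 libraries, 1 per sex, and do not measure the spread between mice. Fewer positive cells cannot be told apart from less mRNA per cell in a sum, so both sums and shares of cells are given.

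Klrd1 (CD94) had 733 CPM in female and 723 CPM in male Cd8 cells, against 15.6 and 19.8 CPM in Treg cells and 139 and 95.8 CPM in other Cd4 cells. The class sums did not overlap, and both libraries gave the same order. The log2 fold change was 5.50 over Treg cells (edgeR adjusted p = 1.26e-06) and 2.70 over other Cd4 cells (adjusted p = 3.72e-05), or 3.03 over other Cd4 cells with Cd3e required and no Ncr1. Klrd1 was found in 88.0% of Cd8 cells, 4.35% of Treg cells and 24.1% of other Cd4 cells. After thinning the shares were 75.8%, 2.46% and 17.3%. None of the 53 Krt8 cells had a Klrd1 UMI, which allows a level of up to 1.17 CPM and a share of up to 5.66% of cells. The Treg level in CPM lay above the first bound, and the Treg share of 4.35% lay below the second. The part of free RNA in the Treg level was not tested. In Treg cells 1 female barcode held 58.1% of that library's 31 UMIs. The positive Cd8 cells held on average 12.3 (female) and 10.5 (male) UMIs of Klrd1.

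Klrc1 (NKG2A), the inhibitory partner of CD94, had 634 and 622 CPM in female and male Cd8 cells, against 51.4 and 84.5 CPM in Treg cells and 124 and 107 CPM in other Cd4 cells. The Cd8 sums lay above all sums of the other classes. The log2 fold change of Cd8 cells was 3.36 over Treg cells (edgeR adjusted p = 7.13e-06) and 2.50 over other Cd4 cells (adjusted p = 8.80e-05). Klrc1 was found in 84.5% of Cd8 cells, 15.5% of Treg cells and 16.6% of other Cd4 cells. In Cd8 cells with Klrc1, Klrd1 was found in 92.9% of the female and 92.2% of the male cells, against 65.0% and 61.7% of Cd8 cells without Klrc1. In Treg cells with Klrc1, Klrd1 was found in 2 of 30 female and 9 of 59 male cells. In other Cd4 cells with Klrc1 it was found in 24 of 42 female and 22 of 37 male cells. Most Treg cells with Klrc1 thus had no Klrd1 UMI, unlike most Cd8 and other Cd4 cells with Klrc1, and this difference was not tested.

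Klrk1 (NKG2D), the activating receptor, had 286 and 309 CPM in female and male Cd8 cells, against 10.6 and 12.8 CPM in Treg cells and 65.6 and 42.1 CPM in other Cd4 cells. Its log2 fold change in Cd8 cells was 4.82 over Treg cells (edgeR adjusted p = 2.95e-06) and 2.53 over other Cd4 cells (adjusted p = 7.25e-05), or 2.88 over other Cd4 cells with Cd3e required and no Ncr1. It was found in 76.6% of Cd8 cells, 3.65% of Treg cells and 13.0% of other Cd4 cells. Hcst (DAP10), its adaptor, was found in 97.2% of female and 97.0% of male Cd8 cells with Klrk1. Unlike Klrk1, Hcst was high in all 3 classes, at 526 and 613 CPM in Cd8 cells, 398 and 519 CPM in Treg cells and 666 and 609 CPM in other Cd4 cells.

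Klre1, the partner chain of Klri2 in mouse, had 103 and 97.4 CPM in female and male Cd8 cells, against 0 and 2.89 CPM in Treg cells and 14.7 and 4.35 CPM in other Cd4 cells. The female Treg cells had no Klre1 UMI, so the female Cd8 level was at least 68.2-fold higher, taking 3 counts as the floor of that library's sum. The log2 fold change over both libraries was 3.43 over other Cd4 cells (edgeR adjusted p = 0.000544), and the call over Treg cells had an adjusted p of 4.66e-05. With DESeq2 the fold over other Cd4 cells was 3.36 and the call was lost (adjusted p = 0.154), and with Cd3e required and no Ncr1 it was 4.61. Klre1 was found in 46.5% of Cd8 cells, 0.522% of Treg cells and 2.73% of other Cd4 cells. Krt8 cells held 1 UMI of Klre1, so that as counted it was found in 1.89% of them, above the share of Treg cells. After thinning Klre1 was found in 0.199% of Krt8 cells, 0.366% of Treg cells and 21.2% of Cd8 cells. The Treg level of Klre1 cannot be told apart from free RNA by these shares.

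The 4 receptors of the chromosome 6 cluster occurred together in single Cd8 cells. Of Cd8 cells, 42.0% had UMIs of all 4 (Klrd1, Klrc1, Klrk1 and Klre1), 30.9% of 3, 12.3% of 2, 10.3% of 1 and 4.50% of none. All 4 were found in 45.3% of female and 38.2% of male Cd8 cells. Of Treg cells 81.2% had none, 15.1% had 1, and 1 of 575 had all 4. Of other Cd4 cells 64.8% had none, 19.3% had 1, 11.5% had 2 and 4 of 477 had all 4. These shares depend on depth, which was highest in Cd8 cells.

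Crtam, the adhesion receptor for Cadm1, had 32.2 and 37.8 CPM in female and male Cd8 cells, against 0.504 and 1.65 CPM in Treg cells and 3.82 and 1.45 CPM in other Cd4 cells. The log2 fold change in Cd8 cells was 5.10 over Treg cells (edgeR adjusted p = 3.81e-05) and 3.74 over other Cd4 cells (adjusted p = 0.000349). Crtam was found in 22.5% of Cd8 cells and 8.32% after thinning, in 0.696% of Treg cells and in 1.47% of other Cd4 cells. None of the 53 Krt8 cells held it, which allows a level of up to 1.17 CPM there, and Treg and other Cd4 cells held 5 and 8 UMIs over both libraries.

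Klrg1, the receptor for cadherins, ran the other way. It had 17.3 and 15.9 CPM in female and male Cd8 cells, against 425 and 415 CPM in Treg cells and 103 and 33.4 CPM in other Cd4 cells. Its log2 fold change was -4.52 in Cd8 over Treg cells (edgeR adjusted p = 1.3e-05), -1.95 in Cd8 over other Cd4 cells (adjusted p = 0.00315) and 2.57 in Treg over other Cd4 cells (adjusted p = 0.000834). It was found in 11.7% of Cd8, 56.7% of Treg and 12.8% of other Cd4 cells, and in 4.57%, 47.8% and 11.1% after thinning. The 2 libraries gave the same order of the 3 classes, with log2 ratios of Treg over other Cd4 cells of 2.04 (female) and 3.64 (male). Klrg1-positive Treg cells carried Il12rb2, a chain of the interleukin-12 receptor, in 31.3% of female and 24.5% of male cells, against 11.2% and 9.27% of Klrg1-negative Treg cells (median depth 6603.5 UMIs with Klrg1 and 5466 UMIs without). For Il1rl1, the interleukin-33 receptor, the shares were 21.6% and 12.5% against 17.3% and 12.6%.

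The adaptors did not follow the receptors. Tyrobp (DAP12) had 9.63 and 7.52 CPM in female and male Cd8 cells, against 17.6 and 19.4 CPM in Treg cells, and 164 and 2.90 CPM in other Cd4 cells. Fcer1g had 26.8 and 18.6 CPM in Cd8 cells, 32.8 and 21.9 CPM in Treg cells, and 84.8 and 8.71 CPM in other Cd4 cells. Both were thus high in other Cd4 cells of 1 library and low in those of the other. Between Cd8 and Treg cells neither passed the test, with log2 fold changes of -0.97 for Tyrobp (edgeR adjusted p = 0.439) and -0.08 for Fcer1g (adjusted p = 0.908). The Treg level of Fcer1g rests on few barcodes, of which 1 held 72.3% of the female and another 50.9% of the male UMIs. The Fcer1g value was 1.24 without the richest barcode (adjusted p = 0.117) and 1.28 without barcodes that hold myeloid, B cell or keratin UMIs (adjusted p = 0.0942), where Tyrobp was at 1.10 (adjusted p = 0.410). Between Cd8 and other Cd4 cells Tyrobp was called lower, at -2.88 (adjusted p = 0.0312), and Fcer1g did not pass, at -0.81 (adjusted p = 0.221).

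The call on Tyrobp rests on the 4 female barcodes without Cd3e. Without barcodes lacking Cd3e, female other Cd4 cells had 0.680 CPM of Tyrobp and 2.04 CPM of Fcer1g. With a Cd3e UMI required and none of Ncr1, an alternative added after seeing the data, the log2 fold change of Cd8 over other Cd4 cells became 1.99 for Tyrobp (edgeR adjusted p = 0.0186) and 2.02 for Fcer1g (adjusted p = 0.00789). In Treg over other Cd4 cells it became 3.28 for Tyrobp (adjusted p = 0.00174) and 2.31 for Fcer1g (adjusted p = 0.00755), and in Cd8 over Treg cells Tyrobp was -1.29 (adjusted p = 0.00373). Without the female library the log2 ratio of Tyrobp in Cd8 over other Cd4 cells was 1.37. The call on Tyrobp was also lost with DESeq2 (adjusted p = 0.374) and without the barcode richest in it (adjusted p = 0.0515). Few T cells held either adaptor: Tyrobp was found in 3.37% of Cd8, 2.09% of Treg and 1.68% of other Cd4 cells, and Fcer1g in 6.64%, 3.30% and 2.52%. Each was also found in 2 of 53 Krt8 cells (3.77%), at a depth several times that of the T cells. After thinning, Tyrobp was found in 1.36% of Cd8, 1.59% of Treg and 1.36% of other Cd4 cells, against 0.159% of Krt8 cells. Fcer1g was found in 3.08%, 2.31% and 1.98% of the 3 classes, against 0.165% of Krt8 cells. Thinning lowers the share of free RNA most in the deepest barcodes, here the Krt8 cells. As counted, the share of Krt8 cells was above that of every class for Tyrobp, and for Fcer1g it was below that of Cd8 cells only. The part of free RNA in these low shares was not tested.

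Cd7 differed less between the classes than the lectin-like receptors. It had 62.4 and 106 CPM in female and male Cd8 cells, against 45.4 and 35.5 CPM in Treg cells and 92.4 and 65.3 CPM in other Cd4 cells. Its log2 fold change was 1.21 in Cd8 over Treg cells (edgeR adjusted p = 0.0127), with a ratio of 0.46 in female and 1.58 in male cells. In Cd8 over other Cd4 cells it was 0.12 (adjusted p = 0.778), at -0.57 in female and 0.70 in male cells. It passed with cells thinned to 3000 UMIs (1.10, adjusted p = 0.0062) and without barcodes over 20000 UMIs (0.81, adjusted p = 0.0244). In Cd8 over Treg cells the thinned value was 2.08. Without barcodes lacking Cd3e, female other Cd4 cells had 69.3 CPM of Cd7. It was found in 33.1% of Cd8, 15.1% of Treg and 17.4% of other Cd4 cells.

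Between Cd8 and other Cd4 cells 5 members were higher (Klrd1, Klrc1, Klrk1, Klre1 and Crtam) and 2 were lower (Klrg1 and Tyrobp), where 14.1% of all genes tested were higher and 13.9% lower. The median over the members was 2.50, beside 0.01 over all genes. Between Treg and other Cd4 cells 1 member, Klrg1, was higher and 3 were lower, where 9.89% of all genes were higher and 9.87% lower. The lower ones were Klrd1 at -2.80 (edgeR adjusted p = 0.000113), Klrk1 at -2.29 (adjusted p = 0.000722) and Klrc1 at -0.86 (adjusted p = 0.0190). With Cd3e required and no Ncr1, Klrd1 was at -2.46 and Klrk1 at -1.99. For Klrc1 the call was lost without barcodes over 20000 UMIs (-0.44, adjusted p = 0.125) and with cells thinned to 3000 UMIs (-0.36, adjusted p = 0.226). The other members had log2 fold changes of -1.08 for Cd7 (adjusted p = 0.0525), -2.69 for Klre1 (adjusted p = 0.0548), -1.91 for Tyrobp, -0.73 for Fcer1g and -1.36 for Crtam. The median over the members was -1.36, beside -0.01 over all genes.

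Other cell types' genes moved with the classes. The NK marker list of 10 genes, which includes Gzma and Eomes of cytotoxic T cells, summed to 748 and 732 CPM in Cd8 cells, 33.3 and 29.3 CPM in Treg cells and 68.8 and 36.3 CPM in other Cd4 cells. The 15 myeloid markers summed to 221 and 224 CPM in Cd8 cells, 398 and 339 CPM in Treg cells and 140 and 148 CPM in other Cd4 cells, and Lyz2 is at 0 by the gates. The 11 gamma delta T markers summed to 29.6 and 29.3 CPM in Cd8 cells, 0.504 and 10.3 CPM in Treg cells and 25.5 and 8.71 CPM in other Cd4 cells, and of these Trgv2 was found in 11.3% of female and 8.96% of male Cd8 cells. The 9 neutrophil and mast cell markers summed to 5.36-23.6 CPM except in male other Cd4 cells, at 168 CPM, where 1 barcode held 94.8% of the UMIs. The 6 B cell markers summed to 1.45-12.8 CPM. The 7 tumor or epithelial markers summed to 72.1 and 44.1 CPM in Cd8 cells, 699 and 23.1 CPM in Treg cells, where 1 female barcode held 50.3% of the UMIs, and 2.55 and 5.08 CPM in other Cd4 cells. The part of these genes in the results was not tested, beyond the fits without barcodes that hold myeloid, B cell or keratin UMIs.

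Among 35 other NK-type receptors, 33 were in the files and 15 were tested between the classes. Beside this list and those below, the shares over all genes were 16.9% higher and 16.5% lower in Cd8 over Treg cells. They were 14.1% and 13.9% in Cd8 over other Cd4 cells, and 9.89% and 9.87% in Treg over other Cd4 cells. In Cd8 over Treg cells 9 were higher and 2 lower, with a median log2 fold change of 2.63, or 2.61 with a gene at 0 in Treg cells set at its bound. In Cd8 over other Cd4 cells 8 were higher and 1 lower, with a median of 0.84. Cd160, a receptor for class I molecules and HVEM, had 94.4 and 99.6 CPM in female and male Cd8 cells, against 0 and 3.30 CPM in Treg cells and 5.74 and 2.90 CPM in other Cd4 cells. Its log2 fold change over other Cd4 cells was 4.52 (edgeR adjusted p = 0.000192). Cd244a (2B4), a receptor for CD48, was higher in Cd8 than in Treg cells by 3.70 (adjusted p = 0.00279), at 13.7 and 13.2 CPM against 2.52 and 0 CPM. Klri2, the partner chain of Klre1, had 20.7 and 21.2 CPM in Cd8 cells and 6.37 and 2.18 CPM in other Cd4 cells, a log2 fold change of 2.33 (adjusted p = 0.00227). Klrc2 had 12.9 and 14.6 CPM in Cd8 cells against 3.82 and 0 CPM in other Cd4 cells (log2 fold change 2.82, adjusted p = 0.0123), and its reads may be shared with Klrc1. Of the Ly49 family, whose members are also near-identical, Klra3 had 7.92 and 15.5 CPM in Cd8 cells against 0 and 0.412 CPM in Treg cells and no UMI in other Cd4 cells. Klra5 had 4.86 and 1.38 CPM in Cd8 cells and 7.01 and 0.726 CPM in other Cd4 cells, with no UMI in Treg cells.

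In Treg over other Cd4 cells 1 of the 15 other receptors was higher and 3 were lower, with a median of -1.38, or -1.42 with the genes at 0 in a class set at their bounds. Tigit, an inhibitory receptor for nectin-family ligands, was the higher one, at 801 and 970 CPM in Treg cells against 299 and 308 CPM in other Cd4 cells, a log2 fold change of 1.46 (edgeR adjusted p = 0.000251). Cd226, the activating receptor that shares ligands with Tigit, ran the other way at -1.74 (adjusted p = 0.00147), with 11.6 and 14.4 CPM in Treg cells and 49.7 and 33.4 CPM in other Cd4 cells. Cd96, of the same family, was lower by a log2 fold change of -2.05 (adjusted p = 0.000206).

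Of 21 adaptors and kinases that act below these receptors, 17 were tested between the classes. In Cd8 over Treg cells 9 were higher and 3 lower (median 0.33), in Cd8 over other Cd4 cells 5 were higher and 5 lower (median -0.10), and in Treg over other Cd4 cells edgeR called none higher and 8 lower (median -0.39), with 0 higher by DESeq2 or at an unadjusted p under 0.05. Sh2d2a, an adaptor of activated T cells, was higher in Cd8 cells by 1.59 over Treg cells (edgeR adjusted p = 3.24e-05) and by 1.01 over other Cd4 cells (adjusted p = 0.000639). Ptpn6 (SHP-1), a phosphatase recruited by inhibitory receptors, was higher in Cd8 cells by 1.003 over Treg cells (adjusted p = 0.000979) and by 0.81 over other Cd4 cells (adjusted p = 0.00554). Cd247, the zeta chain, was lower in Cd8 cells, at -0.71 over Treg cells (adjusted p = 0.000587) and -1.11 over other Cd4 cells (adjusted p = 0.000176). Hcst was lower in Treg than in other Cd4 cells, at -0.58 (adjusted p = 0.0121).

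The ligands of these receptors were found in the T cells themselves and in the Krt8 cells. Of 21 ligand genes, 17 were in the files and 7 were tested between the classes, of which edgeR called none higher and 5 lower in Cd8 than in Treg cells (median -0.58), with 1 higher at an unadjusted p under 0.05 and none by DESeq2. In Cd8 over other Cd4 cells 1 was higher and 2 lower (median -0.21), and in Treg over other Cd4 cells 4 were higher and none lower (median 0.40), with 0 lower by either tool or at an unadjusted p under 0.05. H2-T23, which encodes Qa-1, had 473 and 449 CPM in Cd8 cells, 703 and 837 CPM in Treg cells and 475 and 464 CPM in other Cd4 cells. Its log2 fold change was -0.58 in Cd8 over Treg cells (edgeR adjusted p = 0.00263) and 0.62 in Treg over other Cd4 cells (adjusted p = 0.00452). Raet1e, a ligand gene of NKG2D, was lower in Cd8 than in Treg cells by a log2 fold change of -1.11 (adjusted p = 0.00165). Cadm1, the ligand of Crtam, had 99.5 and 85.6 CPM in female and male Krt8 cells, where H2-T23 had 116 and 133 CPM, Raet1e 46.6 and 61.2 CPM and Ulbp1 17.6 and 13.1 CPM. The cadherin genes Cdh1, Cdh2 and Cdh4, which encode ligands of Klrg1, had no UMI in the Krt8 cells.

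Within Cd8 cells the members differed by state. Cells with Gzmf, a granzyme of strongly activated cytotoxic cells, numbered 256 female and 228 male ones. The cells without it were divided into those with Havcr2 (TIM-3, a mark of exhausted cells), 1023 and 706, those with Tcf7 but no Havcr2 (a transcription factor of memory-like cells), 452 and 584, and a rest of 490 and 390. In Havcr2 over Tcf7 cells 3 members were higher and 2 lower, where 13.0% of the 11498 genes tested were higher and 12.3% lower, and the median over the members was 0.74, beside 0.00 over all genes.

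**Figure D1:**
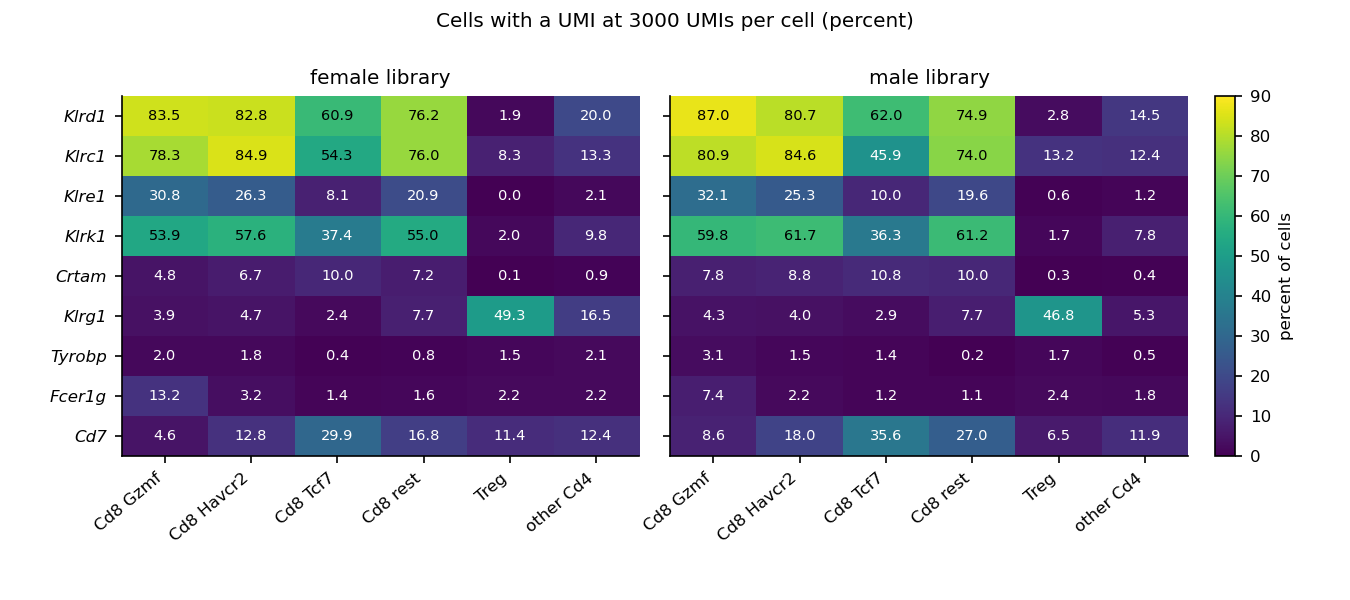
Share of cells, in percent, with at least 1 UMI of each member in the Cd8 states, Treg and other Cd4 cells of each library, after thinning each cell to 3000 UMIs. Klrd1, Klrc1 and Klrk1 are frequent in every Cd8 state, Klre1 is less frequent in the Tcf7 than in the Havcr2 state, and Klrg1 is highest in Treg cells.

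Klre1 had the largest fold change of the members called higher, at 115 and 113 CPM in female and male Havcr2 cells against 35.5 and 42.0 CPM in Tcf7 cells (log2 fold change 1.47, edgeR adjusted p = 0.000146). Klrc1 had 709 and 751 CPM in Havcr2 cells against 461 and 363 CPM in Tcf7 cells (0.74, adjusted p = 0.00257). Klrd1 had 805 and 799 CPM against 507 and 521 CPM (0.56, adjusted p = 0.00319). Even in Tcf7 cells these 2 genes thus stayed above 360 CPM. Cd7 was lower, at 54.2 and 88.8 CPM in Havcr2 cells against 155 and 191 CPM in Tcf7 cells (-1.39, adjusted p = 0.00108). Crtam was lower, at 32.2 and 36.0 CPM in Havcr2 cells against 53.6 and 53.4 CPM in Tcf7 cells (-0.73, adjusted p = 0.00205), and this call was lost with cells thinned to 3000 UMIs (-0.31, adjusted p = 0.273). Klrk1 did not pass, at 302 and 333 CPM in Havcr2 cells against 231 and 242 CPM in Tcf7 cells (0.34, adjusted p = 0.0546), and it did pass with Cd3e required and no Ncr1 (0.33, adjusted p = 0.00563) and with thinned cells (0.57). Klrg1 (0.79), Fcer1g (0.91) and Tyrobp (1.01) did not pass. With Cd3e required and no Ncr1, Tyrobp and Fcer1g passed at 1.62 (adjusted p = 0.00966) and 1.55 (adjusted p = 0.00387). Havcr2 cells were deeper than Tcf7 cells, at medians of 12608 and 10915 UMIs against 7350 and 7540 UMIs. Their tumor or epithelial markers summed to 38.6 and 51.2 CPM, against 5.88 and 4.44 CPM in Tcf7 cells, whose part in these results was not tested.

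In Cd8 cells with Gzmf over those without, 1 member was higher and 2 were lower, where 2.06% of the 11145 genes tested were higher and 3.26% lower. Fcer1g was the higher one, with 66.8 and 36.1 CPM in Gzmf-positive cells of the female and male libraries, against 15.3 and 12.9 CPM in Gzmf-negative cells. Its log2 fold change was 1.88 (edgeR adjusted p = 0.0137), and it was 2.03 with Cd3e required and no Ncr1 (adjusted p = 0.000378). The call was lost at folds of like size with DESeq2 (1.80, adjusted p = 0.211), without the library block (1.93, adjusted p = 0.136) and where Lyz2 was not used in the gates (1.52, adjusted p = 0.0691). The 15 myeloid markers summed to 254 and 290 CPM in Gzmf-positive against 212 and 202 CPM in Gzmf-negative cells, and among them Cst3, which T cells also express, was called higher (0.53, adjusted p = 0.0274). Col1a1, a collagen gene found in under 2% of Gzmf-positive cells, was also called higher (1.87, adjusted p = 0.00122). Without barcodes that hold myeloid markers other than Cst3 and Apoe, or B cell or keratin UMIs, Fcer1g was at 2.51 (adjusted p = 0.000735). Cd7 had 19.3 and 40.4 CPM in Gzmf-positive against 74.8 and 127 CPM in Gzmf-negative cells (-1.72, adjusted p = 0.00739). Crtam had 17.5 and 25.3 CPM against 36.4 and 41.9 CPM (-0.83, adjusted p = 0.0147), a call lost without barcodes over 20000 UMIs (-0.57, adjusted p = 0.0851) and, at a fold of like size, with thinned cells (-0.82, adjusted p = 0.0799). The 4 cluster receptors did not pass: Klrd1 had 733 and 805 CPM in Gzmf-positive against 733 and 697 CPM in Gzmf-negative cells, Klrc1 548 and 620 against 659 and 622 CPM, and Klrk1 263 and 297 against 293 and 313 CPM. Klre1 had 120 and 125 CPM against 98.3 and 88.3 CPM (0.45, adjusted p = 0.151), and with cells thinned to 3000 UMIs it passed at 0.78 (adjusted p = 0.00215). Klrg1 (-0.04) and Tyrobp (0.88) did not pass. The median over the members was -0.04, beside 0.01 over all genes.

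Counted by cell, almost every Gzmf-positive Cd8 cell also held the CD94 and NKG2A chains. Klrd1 was found in 97.1% of Gzmf-positive and 86.8% of Gzmf-negative Cd8 cells, Klrc1 in 96.3% and 82.9%, Klrk1 in 93.4% and 74.4% and Klre1 in 81.2% and 41.9%. Fcer1g was found in 24.0% and 4.33%, and by library in 30.1% against 5.09% of female and 17.1% against 3.45% of male cells. Cd7 was the exception, in 24.8% of Gzmf-positive and 34.2% of Gzmf-negative cells. Gzmf-positive cells were deeper, at a median of 20329.5 UMIs against 8857 UMIs, and thinning each cell to 3000 UMIs brought the shares of Klrd1 to 85.1% and 74.6%, of Klrk1 to 56.6% and 52.2%, of Klre1 to 31.4% and 19.7% and of Fcer1g to 10.5% and 2.05%. For Klrg1 the shares were 21.7% and 10.4%, and after thinning 4.11% and 4.63%, so the higher share with Gzmf was not seen at equal depth. Crtam turned likewise, at 31.8% and 21.3% before and 6.14% and 8.62% after thinning. Tyrobp was found in 8.06% and 2.74%, and in 2.56% and 1.20% after thinning.

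The share of thinned Cd8 cells with both transcripts, divided by the product of the separate shares, was 4.24 for Gzmf with Fcer1g (4.45 in female and 3.99 in male cells). It was 1.94 with Tyrobp, 1.55 with Klre1 (1.45 and 1.66), 1.13 with Klrd1, 1.09 with Klrc1 and 1.07 with Klrk1. It was under 1 with Klrg1 (0.931), Crtam (0.751; 0.658 and 0.819) and Cd7 (0.287; 0.245 and 0.313). With at least 2 Gzmf UMIs required, the values were 4.11 for Fcer1g and 0.275 for Cd7. These ratios are descriptions of cells from 2 libraries and carry no test. Such a ratio cannot exceed 1 over the larger of the 2 shares. The values of the abundant Klrd1, Klrc1 and Klrk1 therefore cannot be ranked against that of Fcer1g. Outside Cd8 cells Gzmf was rare, in 14 Treg and 11 other Cd4 cells. Of the 14 Treg cells 7 held Klrg1, 3 Klrc1 and 0 Klrd1, and of the 11 other Cd4 cells 6 held Klrd1 and 0 Klrg1. Barcodes without Cd3e held 519 of the 529 Gzmf UMIs of female other Cd4 cells. Those with 250 and 269 Gzmf UMIs had 9 and 11 Ncr1 UMIs and 35 and 28 Klrd1 UMIs.

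Among pairs of members in thinned Cd8 cells, the adaptors Tyrobp and Fcer1g stood out at 11.7 times the product of their shares (9.69 in female and 15.5 in male cells), from few cells. The female Cd8 barcodes richest in the 2 adaptors included ones with 16, 14, 9 and 3 of the 45 Ncr1 UMIs of that class. Another held 7 UMIs of Cd68, a myeloid marker, and all of these held Cd3e. The richest male ones held no Ncr1 and 1-3 UMIs of Aif1, also a myeloid marker. The part of such barcodes in the ratio was not tested. Klrg1 with Tyrobp gave 2.61 and Klre1 with Fcer1g 1.48. The abundant receptors gave values near 1: Klrd1 with Klrc1 gave 1.07, with 59.4% of cells holding both, Klrd1 with Klrk1 1.09 and Klrc1 with Klrk1 1.15. Their shares are large, which keeps this ratio low, so these values cannot be ranked against that of the rare adaptors. As counted, Klrd1 was found in 92.6% of Cd8 cells with Klrc1 and 63.1% of those without, at median depths of 10738 and 6038 UMIs. Klre1 with Cd7 gave 0.668 and Klrg1 with Crtam 0.749, while Cd7 with Crtam, the 2 members that were lower in both the Gzmf and the Havcr2 comparisons, gave 1.25.

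The other lists moved as follows within Cd8 cells. Over all genes tested, 13.0% were higher and 12.3% lower in Havcr2 over Tcf7 cells. In Gzmf-positive over Gzmf-negative cells the shares were 2.06% and 3.26%. Of the other NK-type receptors 23 were tested in Havcr2 over Tcf7 cells, of which 6 were higher and 4 lower (median 0.23), and 18 in Gzmf-positive over Gzmf-negative cells, of which 1 was higher and 1 lower (median 0.04). Cd244a was higher in both, by 2.67 in Havcr2 cells (edgeR adjusted p = 0.000313) and by 1.26 in Gzmf-positive cells (adjusted p = 0.0206). Klra3 was higher in Havcr2 cells by 2.38 (adjusted p = 0.000166), while Klra9 (-3.78, adjusted p = 0.0118) and Klra6 (-3.09, adjusted p = 0.0119), each at under 2 CPM in Cd8 cells, were lower. Slamf6, a mark of memory-like cells, was lower in Gzmf-positive cells at -1.33 (adjusted p = 0.00806). Of 18 adaptors and kinases tested, 6 were higher and none lower in Havcr2 cells (median -0.02; none lower by DESeq2 and 1 at an unadjusted p under 0.05), among them Cd3g (0.69, adjusted p = 0.000572), Sh2d2a (0.68, adjusted p = 0.000397) and Zap70 (0.56, adjusted p = 0.000865). In Gzmf-positive cells edgeR and DESeq2 each called none of the 18 (median -0.07), while at an unadjusted p under 0.05 edgeR gave 2 higher and 1 lower. Of the ligands 2 of 10 were higher and 1 lower in Havcr2 cells (median 0.06), and in Gzmf-positive cells edgeR and DESeq2 each called none of 9 (median -0.18), with 0 higher and 3 lower at an unadjusted p under 0.05.

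The 16 granule effector genes give the setting of the receptors. In Cd8 over Treg cells 13 were higher and 1 lower (median 3.71), in Cd8 over other Cd4 cells 9 were higher and 1 lower (median 1.37), and in Treg over other Cd4 cells 2 were higher and 9 lower (median -2.19). Prf1 (perforin) was higher in Cd8 than in other Cd4 cells by 4.97 (edgeR adjusted p = 1.62e-05) and Gzmb by 3.32 (adjusted p = 2.06e-05). In Havcr2 over Tcf7 cells 9 were higher and 2 lower (median 1.15), with Prf1 at 3.71 (adjusted p = 1.77e-07). In Gzmf-positive cells 8 were higher and 1 lower (median 0.37), of which Gzmf itself set the gate. The related granzyme genes Gzmg (7.82, adjusted p = 6.57e-06), Gzmd (5.23, adjusted p = 0.000772) and Gzme (4.78, adjusted p = 0.000237), were higher with it, and reads may be shared among these near-identical genes.

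The genes most like each member were found by Pearson correlation of log2(CPM + 10) over 12 sums, 6 cell states in 2 libraries, among 7002 genes. Klrd1 was nearest to Rmnd5b (r = 0.990), Klrc1 to Ncald (0.984), Klrk1 to Jaml (0.988) and Klre1 to Nrgn (0.989), a gene that was also among the nearest 3 of Klrd1 and Klrc1. Klrg1 was nearest to Necap2 (0.984), Cd7 to Plcxd2 (0.960) and Crtam to Eomes (0.970). Tyrobp was nearest to Kif5b (0.903) and Fcer1g to Tmem168 (0.847). Among the members, r was 0.992 for Klrd1 with Klrk1, 0.971 for Klrd1 with Klrc1, 0.951 for Klrd1 with Klre1, 0.813 for Tyrobp with Fcer1g and -0.916 for Klrd1 with Klrg1. For Tyrobp and Fcer1g the values include the female other Cd4 sum, where 4 barcodes without Cd3e held 257 of 258 and 130 of 133 UMIs. No correlation was taken without those barcodes. The sums share libraries and depth, so all values of r given here are descriptions.

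Female and male T cells were compared with 1 library per sex, so there is no replicate and no test, and a difference of sex cannot be told apart from a difference of library. A member was called past when the ratio was at least 1.5-fold and its exact Poisson interval, which covers counting error only, excluded no difference. In Cd8 cells 1 member was past, where 0.574% of 7659 measured genes were higher and 1.25% lower in the female library. Cd7 was that member, at 62.4 CPM in female and 106 CPM in male Cd8 cells, a log2 ratio of female over male of -0.76 (95% interval -0.85 to -0.68). The same order held in Gzmf-positive cells (19.3 and 40.4 CPM), in Havcr2 cells (54.2 and 88.8 CPM), in Tcf7 cells (155 and 191 CPM) and in the rest (74.7 and 143 CPM). The other measured members of Cd8 cells had log2 ratios from -0.23 for Crtam to 0.53 for Fcer1g, with Klrd1 at 0.02 and Klrc1 at 0.03.

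**Figure D2:**
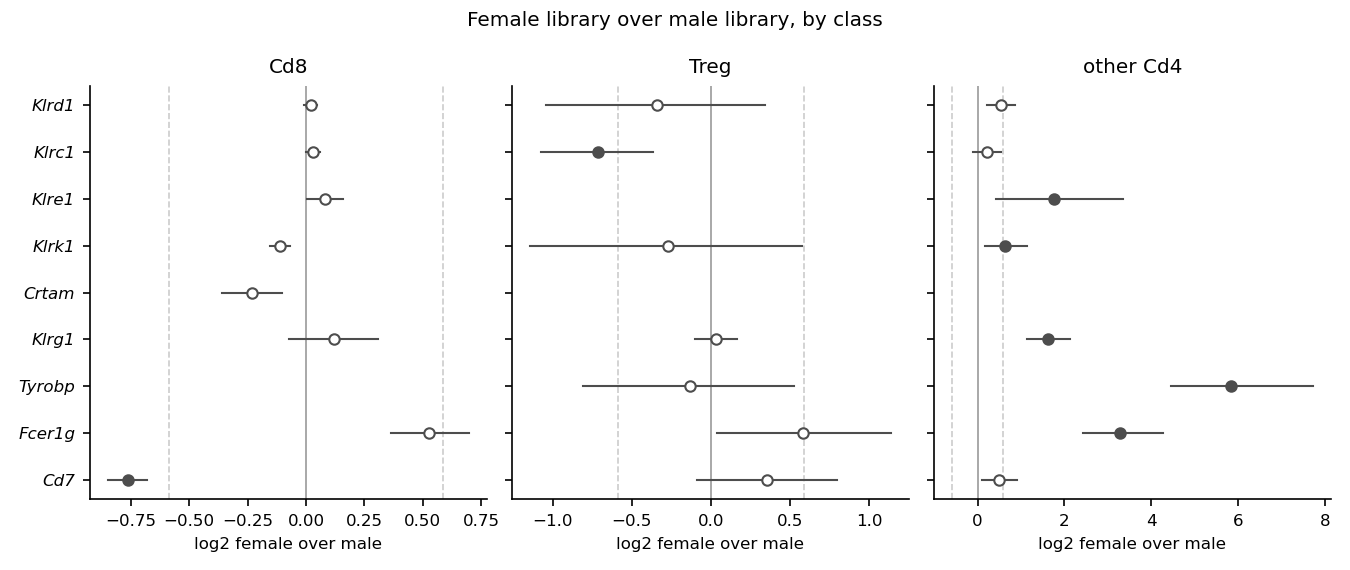
Log2 ratio of the female over the male library for each measured member in Cd8, Treg and other Cd4 cells, with exact Poisson 95% intervals for counting error. Cd7 is lower in female Cd8 cells, Klrc1 is lower in female Treg cells, and Tyrobp and Fcer1g are far higher in female other Cd4 cells.

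In Treg cells 1 member was past, where 5.73% of 8167 measured genes were higher and 4.15% lower. Klrc1 had 51.4 CPM in female and 84.5 CPM in male Treg cells, a log2 ratio of -0.72 (-1.07 to -0.37), and was found in 12.9% of female and 17.2% of male Treg cells. Klrg1 had a log2 ratio of 0.03 in Treg cells. In other Cd4 cells 5 members were past, all higher in the female library, where 4.01% of 7908 measured genes were higher and 3.41% lower. They were Tyrobp (5.82), Fcer1g (3.28), Klre1 (1.75, 0.41 to 3.34), Klrg1 (1.63, 1.15 to 2.13) and Klrk1 (0.64, 0.16 to 1.13). With Cd3e required and no Ncr1, the ratios of Tyrobp and Fcer1g were both -2.15, that of Klre1 was -0.15 and that of Klrk1 was -0.10, so these 4 directions rest on the barcodes without Cd3e. Klrg1 had none of its 162 female UMIs in those barcodes, and was found in 19.1% of female and 6.06% of male other Cd4 cells.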

How the data were processed

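The deposited matrices hold UMI counts for every gene in each barcode; per the file headers they came from the authors' run of Cell Ranger 7.0.1. The submitters' processing notes also name GRCm38 and Seurat 5 with no role given. The libraries were prepared from 10000 to 20000 sorted cells each with a 5′ kit, per the labels. Kept barcodes held 55647457 female and 50716597 male UMIs. Gates of whole UMIs set the classes as described with the results, and barcodes with no class (1806) entered no comparison.

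UMI counts were summed per library and class and tested with edgeR 4.0.16 in R 4.3.3 (quasi-likelihood F-test, TMM factors, filterByExpr, library as block), with Benjamini-Hochberg adjustment over all genes tested. The labels give the libraries no shared replicate number. The block pairs classes gated by UMIs within the same library. Alternatives were DESeq2 1.42.0, RLE factors, no filter, no block, each library alone, stricter cells and gates, and other barcode filters. Shares were thinned to 3000 UMIs as the exact mean over all draws, leaving out 221 Cd8, 51 Treg and 47 other Cd4 cells. Intervals of shares are exact Clopper-Pearson ones at 95%, ratios of sexes have exact Poisson intervals, and a count of 0 allows up to 3 counts. All of these cover counting error only. A gene was measured in the comparison of sexes at 10 CPM in 1 library and 20 UMIs over both. Steps were tested on simulated data.

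The members and gene lists (other NK-type receptors, adaptors and kinases, ligands, granule effectors, and markers of T, NK, gamma delta T, myeloid, neutrophil and mast, B and tumor cells) were chosen with earlier results of these data known. Named list genes were up to 4 called genes per list and comparison with the largest fold changes; Hcst, Il12rb2 and Il1rl1 were picked as partners outside that rule. Sequences came from RefSeq, and 32158 of 32285 genes matched GENCODE M21.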

Additional observations from a re-analysis of the deposited data

Results flagged for a closer look

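In 4 cases a comparison of classes ran in opposite directions in the female and the male library with counting intervals that excluded 0 in both, and the difference between the libraries was not tested. The log2 ratio of Fcer1g in Cd8 over other Cd4 cells was -1.66 in female and 1.09 in male cells. That of Cd7 in the same comparison was -0.57 in female and 0.70 in male cells. In Treg over other Cd4 cells, Tyrobp was at -3.22 in female and 2.74 in male cells, and Fcer1g at -1.37 and 1.33. Tyrobp in Cd8 over other Cd4 cells (-4.09 in female and 1.37 in male cells) and Crtam in Treg over other Cd4 cells (-2.92 and 0.18) also differed in sign, with an interval that included 0 in at least 1 library. The female values of Tyrobp and Fcer1g rest on the 4 other Cd4 barcodes without a Cd3e UMI, which held 257 of 258 and 130 of 133 UMIs. Without the barcodes lacking Cd3e, the female other Cd4 level was 0.680 CPM for Tyrobp, 2.04 CPM for Fcer1g and 69.3 CPM for Cd7.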

How the results depend on the processing

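The tests rest on 2 libraries, and low counts limit Klre1, Crtam, Tyrobp and Fcer1g outside Cd8 cells. Over all members and comparisons, 553 alternative log2 fold changes kept their direction and, where tested, their side of the threshold, 42 gained a call, 14 lost one and 15 reversed. With each library alone, 6 more that were not called turned direction. Below, the Cd3e filter means a Cd3e UMI required and no Ncr1 UMI, both at the same time. In Cd8 over other Cd4 cells Tyrobp turned to 1.99 with the Cd3e filter and lay between -4.09 without the male and 1.37 without the female library, and Fcer1g turned to 2.02 with the Cd3e filter and 1.08 without barcodes over 20000 UMIs. In Treg over other Cd4 cells Tyrobp turned to 3.28 and Fcer1g to 2.31 with the Cd3e filter, and Fcer1g to 1.35 without barcodes over 20000 UMIs (adjusted p = 0.0374), 0.0154 with thinned cells and 0.0760 with stricter gates. In Cd8 over Treg cells Fcer1g turned to 0.0953 with Lyz2 not used, 1.28 without myeloid, B cell or keratin UMIs and 1.24 without the richest barcode, and Tyrobp to 1.10 without myeloid, B cell or keratin UMIs. In the Gzmf comparison Klrc1 turned to 0.14 and Klrk1 to 0.0908 without barcodes over 20000 UMIs. For the comparison of sexes in other Cd4 cells the reversals were Klrk1 at -0.45 with stricter gates and -0.10 with the Cd3e filter, Klre1 at -0.0473 without barcodes over 20000 UMIs and -0.15 with the Cd3e filter, and Tyrobp and Fcer1g at -2.15 with the Cd3e filter.

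Of the 9 members, 4 were called in Treg over other Cd4 cells, against 8 with no filter on low counts and 7 without barcodes that hold myeloid, B cell or keratin UMIs. Over all genes, 973 were higher and 971 lower of 9840 tested. These counts were 1436 and 1083 of 20463 with no filter, and 989 and 993 of 9269 without those barcodes. In Gzmf-positive over Gzmf-negative cells, with 3 called, the counts were 5 with the Cd3e filter or no filter on low counts and 1 with DESeq2 or no library block. The calls over all genes also moved, from 230 higher and 363 lower of 11145. They were 387 and 484 of 11062 with the Cd3e filter and 590 and 697 of 20463 with no filter. With DESeq2 they were 188 and 293, and with no block 46 and 123, of 11145. In Havcr2 over Tcf7 cells, with 5 members called, the counts were 8 with the Cd3e filter and 9 with no filter on low counts. Over all genes, 1490 were higher and 1416 lower of 11498. These counts were 1589 and 1525 of 11392 with the Cd3e filter, and 1919 and 1360 of 20463 with no filter. Of members past 1.5-fold between the sexes, the count in Cd8 cells, 1, was 2 without myeloid, B cell or keratin UMIs, with stricter gates, thinned cells or the richest barcode left out, and 0 without barcodes over 20000 UMIs. In Treg cells, 1, it was 3 with Lyz2 not used, 5 without barcodes over 20000 UMIs, and 2 without myeloid, B cell or keratin UMIs, with the Cd3e filter or without the richest barcode. In other Cd4 cells, 5, it was 3 without myeloid, B cell or keratin UMIs, with stricter gates or thinned cells, 2 without barcodes over 20000 UMIs and 1 with the Cd3e filter. For the sexes, the share over all genes was not taken under these alternatives. Unthinned ratios of co-detection with Gzmf were 1.22 for Klrk1, 1.85 for Klrg1, 1.75 for Klre1, 2.39 for Tyrobp, 3.61 for Fcer1g, 0.749 for Cd7 and 1.41 for Crtam.

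Over all genes DESeq2 called fewer than edgeR: 876 against 1666 higher in Cd8 over Treg cells, 783 against 1385 higher in Cd8 over other Cd4 cells, and 914 higher and 808 lower against 1490 and 1416 in Havcr2 over Tcf7 cells. Beyond the differences given, the causes were not tested.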

Other observations

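Klra4, a Ly49 gene in the list of NK cell markers, was found in all 29 female and 23 of 24 male Krt8 cells, at 214 and 158 CPM. It had 1.41 and 1.09 CPM in Cd8 cells, 18.6 and 3.71 CPM in Treg cells and no UMI in other Cd4 cells. Reads may be shared among the near-identical Ly49 genes, and the source of the Klra4 UMIs in Krt8 cells was not tested.

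The 779 barcodes with both Foxp3 and Cd8 UMIs, which lie outside the classes, carried both receptor patterns. The 356 female and 423 male ones had 586 and 584 CPM of Klrd1, with Klrc1 at 445 and 425 CPM, and Klrg1 at 104 and 110 CPM. Their median depth was 33823 UMIs, against 9593 UMIs in Cd8 cells and 6194 UMIs in Treg cells, and the part of doublets was not tested. The 3 female and 4 male barcodes with at least 5 Lyz2 UMIs and no Cd3e had 3128 and 2304 CPM of Tyrobp and 2681 and 2862 CPM of Fcer1g.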
